A study of Homo sapiens with 4 samples.

Results

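Messenger RNA of 8 sterol pathway genes was followed in the human gastric cancer cell line SNU638 with and without overexpression of the m6A reader YTHDF1. The 8 genes were HMGCS1, SQLE, INSIG1, SREBF2, FDFT1, IDI1, LSS and AACS, and they were found by their symbol among 46427 genes listed in the deposited counts, where each matched 1 gene. The set was chosen by measured values, since AACS had differed over 2-fold between replicate numbers, so differences between the numbers are described here without a test. All 8 were among the 17781 genes that passed the filter on low counts. The group bears the name of sterol synthesis and uptake, but none of the 8 is an uptake gene, so uptake was read from a list of other genes.

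The study asked how YTHDF1 acts on the response to IFN-γ. Its 2 groups were SNU638 with the control vector (Control) and SNU638 overexpressing YTHDF1 (YTHDF1), each with replicates numbered 1 and 2. All cultures went through 24 h of serum starvation and were then exposed to IFN-γ (10 ng/ml), which by the labels lasted 8 h. The study's text gives a longer exposure for the same experiment. No culture without IFN-γ and none with serum was analysed here, so neither the cytokine nor the starvation can be compared with its absence. Plasmids were introduced by transfection according to the study's methods. The promoter of the vector is not given in the sources used here, and 1 cell line was used.

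Total counts were between 57398137 and 60864942 per library. YTHDF1 itself had 82.2 and 80.3 CPM (read counts relative to library size, with sizes adjusted by TMM) in Control replicates 1 and 2, and 16494 and 2628 CPM in YTHDF1 replicates 1 and 2, a log2 fold change of 6.88 with a standard error of 1.20 (edgeR adjusted p = 1.00). The adjusted p of YTHDF1 was 5.54e-14 with DESeq2's Wald test. The libraries of one replicate number stood close together and far from those of the other. Pearson's r of log2 CPM over the tested genes, which are not independent replicates, was 0.985 and 0.983 between the vectors within replicates 1 and 2, against 0.885 and 0.888 between the replicates of Control and of YTHDF1. The labels call the replicates biological and do not say how the numbers differ. Of 7 epithelial markers 6 were over 1 CPM in all libraries and CLDN4 was under it in both replicates 2, with summed levels from 3956 to 6800 CPM. The 6 blood and 4 endothelial markers summed to at most 1.04 and 0.934 CPM, and those of 7 mesenchymal genes to between 24.2 and 25.9 CPM, with COL1A2 and HBB at 0 in every library. In bulk RNA, fewer cells of a kind and less RNA per cell cannot be told apart.

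Cells make cholesterol from acetyl-CoA through the mevalonate pathway. When sterols in the endoplasmic reticulum are scarce, SCAP carries the membrane-bound factor SREBP2, the product of SREBF2, to the Golgi, where it is cut and freed to switch on the genes of synthesis and uptake. When sterols are plentiful, INSIG proteins hold SCAP back. Serum lipoproteins are the usual outside source of cholesterol for cultured cells, and both the enzymes and INSIG1 are classical SREBP targets.

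Because SREBP acts at promoters together with the CCAAT-binding factor NF-Y, the bases just upstream of the start are shown for the members with such a sequence at hand. RefSeq windows (GRCh38.p14, from 250 bases before to 50 after a start) matched 6 of the 8 members with 9 windows, and SQLE and FDFT1 are named only. Each line gives the 200 bases before 1 start, 5′ to 3′ along the gene, and where a gene has several starts the window with the most matches was taken. Capitals mark CCAAT on either strand and the SREBP motif TCACNCCAC on either strand, where N is any base.
HMGCS1, chr5:43313413-43313612, minus strand: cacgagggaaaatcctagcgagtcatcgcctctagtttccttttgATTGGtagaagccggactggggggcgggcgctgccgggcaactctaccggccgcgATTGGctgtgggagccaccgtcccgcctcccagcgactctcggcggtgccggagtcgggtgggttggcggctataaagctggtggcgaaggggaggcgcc
INSIG1, chr7:155297678-155297877, plus strand: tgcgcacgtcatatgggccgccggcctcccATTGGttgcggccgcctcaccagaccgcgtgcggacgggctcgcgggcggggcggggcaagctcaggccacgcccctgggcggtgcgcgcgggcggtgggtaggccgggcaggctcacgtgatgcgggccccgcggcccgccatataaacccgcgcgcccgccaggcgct
IDI1, chr10:1048887-1049086, minus strand: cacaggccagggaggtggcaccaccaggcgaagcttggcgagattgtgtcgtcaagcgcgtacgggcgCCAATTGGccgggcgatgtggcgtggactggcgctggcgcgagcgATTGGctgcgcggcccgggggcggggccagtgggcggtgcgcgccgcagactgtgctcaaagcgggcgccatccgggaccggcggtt
LSS, chr21:46228775-46228974, minus strand: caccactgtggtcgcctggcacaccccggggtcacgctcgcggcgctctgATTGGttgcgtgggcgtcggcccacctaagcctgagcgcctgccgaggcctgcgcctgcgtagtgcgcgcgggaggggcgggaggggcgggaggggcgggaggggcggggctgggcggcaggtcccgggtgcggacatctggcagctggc
SREBF2, chr22:41832905-41833104, plus strand: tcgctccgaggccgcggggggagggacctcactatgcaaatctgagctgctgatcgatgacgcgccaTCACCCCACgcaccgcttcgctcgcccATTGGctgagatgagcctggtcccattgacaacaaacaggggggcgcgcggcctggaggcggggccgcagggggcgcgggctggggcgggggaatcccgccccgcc
AACS, chr12:125065235-125065434, plus strand: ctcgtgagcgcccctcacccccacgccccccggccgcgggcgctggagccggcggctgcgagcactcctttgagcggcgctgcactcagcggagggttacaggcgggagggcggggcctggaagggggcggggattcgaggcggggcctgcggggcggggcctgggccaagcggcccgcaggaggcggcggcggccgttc

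CCAAT was found in 6 of these 9 windows, against 34.6% of 35116 windows of all genes. HMGCS1 had it 2 times, at −155 and −100 from the start, and IDI1 had it 3 times between −132 and −87, where CCAAT and its reverse overlap. INSIG1, LSS and SREBF2 held 1 match each and AACS held 0. The motif TCACNCCAC stood in 1.13% of all windows and in 1 window of a member, that of SREBF2, at −133. These matches describe letters in a window only. In the same build HMGCS1 lies at chr5:43287470-43313412, INSIG1 at chr7:155297878-155310235, SREBF2 at chr22:41833105-41907305, IDI1 at chr10:1039152-1056704, LSS at chr21:46188446-46228774 and AACS at chr12:125065435-125143316.

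Within each vector 7 of the 8 members were higher in replicate 2, and SREBF2 was the exception. HMGCS1, which joins acetoacetyl-CoA and acetyl-CoA at the entry of the pathway, had 561.2 and 1796 CPM in Control replicates 1 and 2. In the YTHDF1 replicates 1 and 2 it had 781 and 1820 CPM. Replicate 2 was thus 3.20-fold higher in Control and 2.33-fold higher in YTHDF1, the widest gap of the 8 members in Control.

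**Figure D1:**
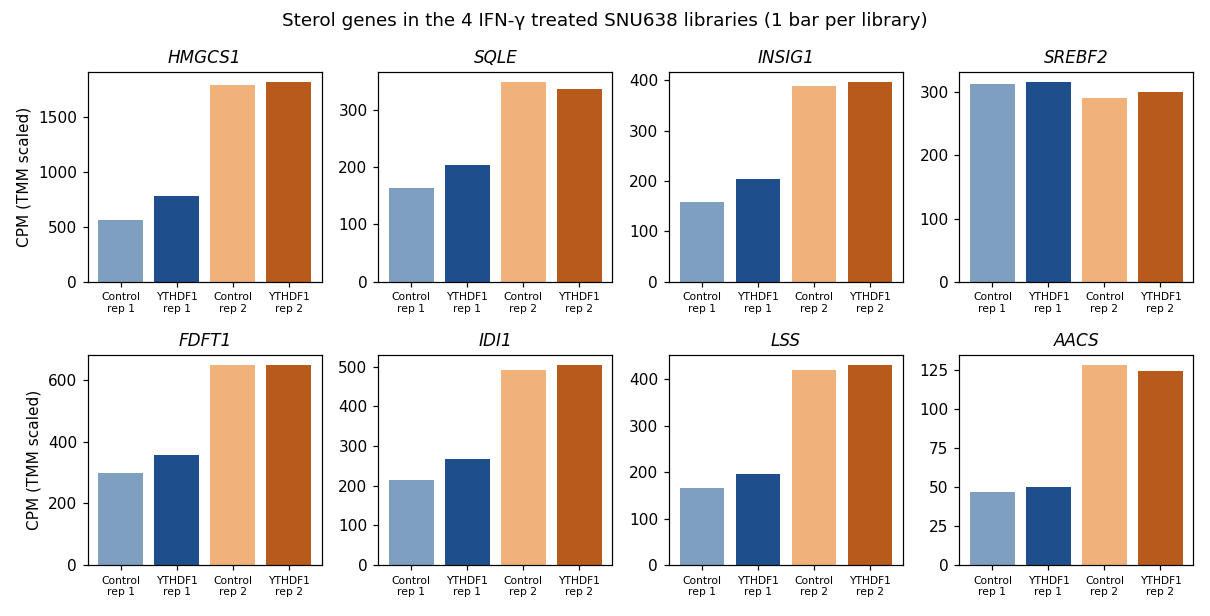
Level of each member in CPM (TMM scaled, linear axis from 0), with 1 bar for each of the 4 libraries. Bars of replicate 2 stand above those of replicate 1 for 7 members, while the bars of SREBF2 lie between 291 and 316 CPM.

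AACS, the acetoacetyl-CoA synthetase that returns ketone bodies to lipid synthesis in the cytosol, had 46.8 and 128 CPM in Control replicates 1 and 2 and 50.4 and 125 CPM in YTHDF1 replicates 1 and 2. The ratios were 2.74 and 2.48, and the levels of the vectors lay close together within each number. LSS, which closes the ring of lanosterol, had 165 and 419 CPM in Control and 195 and 430 CPM in YTHDF1, ratios of 2.53 and 2.20.

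Like HMGCS1, AACS and LSS, the other enzymes showed smaller gaps in YTHDF1 than in Control. IDI1, the isomerase that provides dimethylallyl diphosphate, had 216 and 493 CPM in Control replicates 1 and 2, and 267 and 504 CPM in the YTHDF1 pair. FDFT1, the squalene synthase that commits the pathway to sterols, had 300.0 and 648 CPM in Control and 356 and 648 CPM in YTHDF1. SQLE, the epoxidase of squalene, had 163 and 348 CPM in Control and 204 and 337 CPM in YTHDF1. For all 3 enzymes both replicates 2 stood above both replicates 1.

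The 2 regulators among the members behaved differently from each other. INSIG1, the sterol-dependent anchor of SCAP, had 158 and 388 CPM in Control replicates 1 and 2 and 203 and 397 CPM in YTHDF1 replicates 1 and 2, ratios of 2.47 and 1.95. SREBF2 had 313 and 291 CPM in Control and 316 and 300.2 CPM in YTHDF1. Its log2 difference, replicate 2 minus replicate 1, was −0.10 in Control and −0.075 in YTHDF1.

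In Control 7 members were over 2-fold higher in replicate 2, and in YTHDF1 3 were, namely HMGCS1, LSS and AACS. Over all tested genes these shares were 5.8% and 5.94%, and 3.07% in both vectors together, but the choice of members used this difference and nothing is read from the comparison. The members nearest the 2-fold limit in both vectors were LSS inside, at 2.20-fold in YTHDF1, and INSIG1 outside, at 1.95-fold. In the other direction 0 members were over 2-fold apart in both vectors, where 10.4% of all genes were. Counting error was small beside these gaps. The 95% interval of the log2 difference from Poisson counting was 1.39 to 1.52 for AACS in Control, the member with the fewest counts (2784 in the lowest library), and all such intervals cover counting error only, because the reads carry no molecular identifiers and can be copies of 1 molecule.

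Compared per length of a GENCODE v29 principal transcript, HMGCS1 was the most abundant member and AACS the least. HMGCS1 had 160.0 to 519 CPM per kilobase over the 4 libraries and FDFT1, second in each, had 113 to 244. IDI1 ranked 3 in each library with 64.0 to 150.0 CPM per kilobase, and AACS was last with 14.1 to 38.7. SREBF2 was the 4th most abundant in Control replicate 1 and the 7th in Control replicate 2, with 59.7 and 55.5 CPM per kilobase, as the levels of SQLE, INSIG1 and LSS passed its own. The ranges of INSIG1 (52.3 to 132), SQLE (55.0 to 118), LSS (33.5 to 87.2) and SREBF2 (55.5 to 60.3) overlapped. Within every library INSIG1 and SQLE stood above LSS. The place of SREBF2 and the order of INSIG1 and SQLE changed between libraries.

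The rest of the pathway was read from 7 lists with 97 different genes, of which 89 were tested. Of 22 tested enzymes of sterol synthesis, 20 were higher in replicate 2 within both vectors, as were 7176 of all 17781 genes. The median log2 difference of the enzymes was 1.01 in Control and 0.776 in YTHDF1, where the medians of all genes were −0.015 and −0.018. Leaving out the 5 enzymes among the members, 15 of 17 were higher, with medians of 0.989 and 0.747. The choice of members used this difference and the lists were chosen with earlier results known, so nothing is read from these counts.

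**Figure D2:**
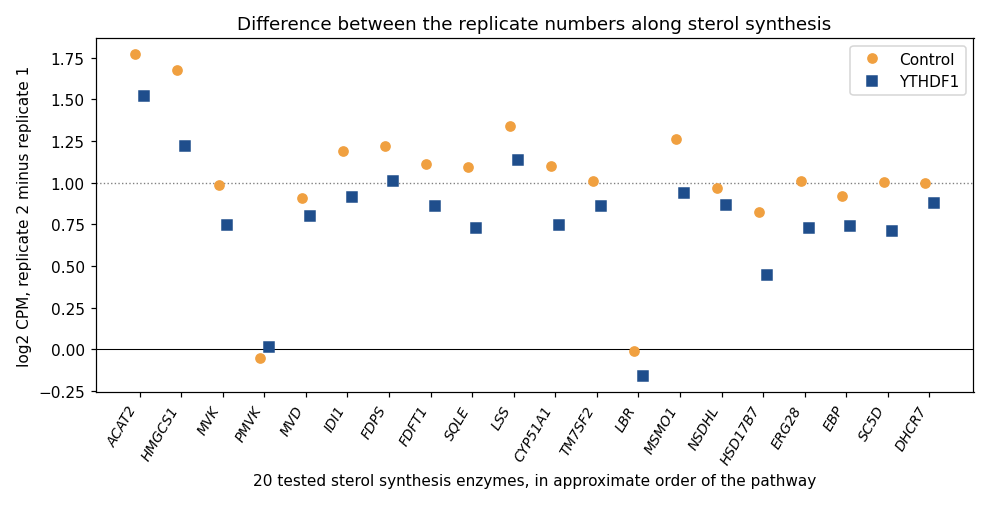
Log2 difference in CPM between replicate 2 and replicate 1 for 20 of the 22 tested enzymes of sterol synthesis, in approximate order of the pathway, with circles for Control and squares for YTHDF1. The dotted line marks a 2-fold difference, and PMVK and LBR lie near 0.

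ACAT2, which makes acetoacetyl-CoA for the pathway, had the widest gap of the list, with 111 and 380.2 CPM in Control and 136 and 391 CPM in YTHDF1. FDPS, the farnesyl diphosphate synthase, was also over 2-fold higher in replicate 2 in both vectors, at 2.33-fold and 2.01-fold.

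Most other enzymes lay near a 2-fold gap in Control and below it in YTHDF1. CYP51A1, the demethylase of lanosterol, differed by 1.10 in Control and 0.75 in YTHDF1 (log2, replicate 2 minus replicate 1), and MSMO1, which removes the next methyl groups, by 1.26 and 0.94. MVD, the last enzyme of the mevalonate segment, differed by 0.91 and 0.80. DHCR7, a reductase of the final steps, differed by 1.00 and 0.88. The exceptions, near 0 in both vectors, were PMVK (−0.054 and 0.017) and LBR (−0.0094 and −0.16), the latter also a protein of the nuclear envelope. IDI2, the paralogue of IDI1, had at most 9 counts in any library and was not tested.

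The genes that control SREBP had medians near 0, with INSIG1 well above the others. Of 12 tested genes, 3 were higher and 8 lower in replicate 2 within both vectors, with medians of −0.12 in Control and −0.14 in YTHDF1. Among all 17781 genes 7176 were higher and 7708 lower, and nothing is read from these counts. SCAP had 68.4 and 66.6 CPM in Control replicates 1 and 2, and 62.4 and 69.8 CPM in YTHDF1. INSIG2, the paralogue that lacks the strong sterol response of INSIG1, differed by 0.26 and 0.10 on the log2 scale. SREBF1, which encodes the factor of fatty acid synthesis, differed by −0.35 and −0.18.

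Of the 14 tested genes of sterol uptake and intracellular transport, 8 were higher and 6 lower in replicate 2 within both vectors. Among all 17781 genes 7176 were higher and 7708 lower, and nothing is read from these counts. STARD4, a carrier of sterol between membranes, was higher in replicate 2, with log2 differences of 0.78 in Control and 0.52 in YTHDF1. NPC1, which exports cholesterol from lysosomes, was near even (−0.19 and −0.20). MYLIP, a ubiquitin ligase that liver X receptors switch on, was lower in replicate 2, with 11.6 and 5.18 CPM in Control and 12.1 and 5.50 CPM in YTHDF1. GRAMD1A and NPC1L1 were also over 2-fold lower in both vectors, the latter at 0.215 to 2.71 CPM.

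**Figure D3:**
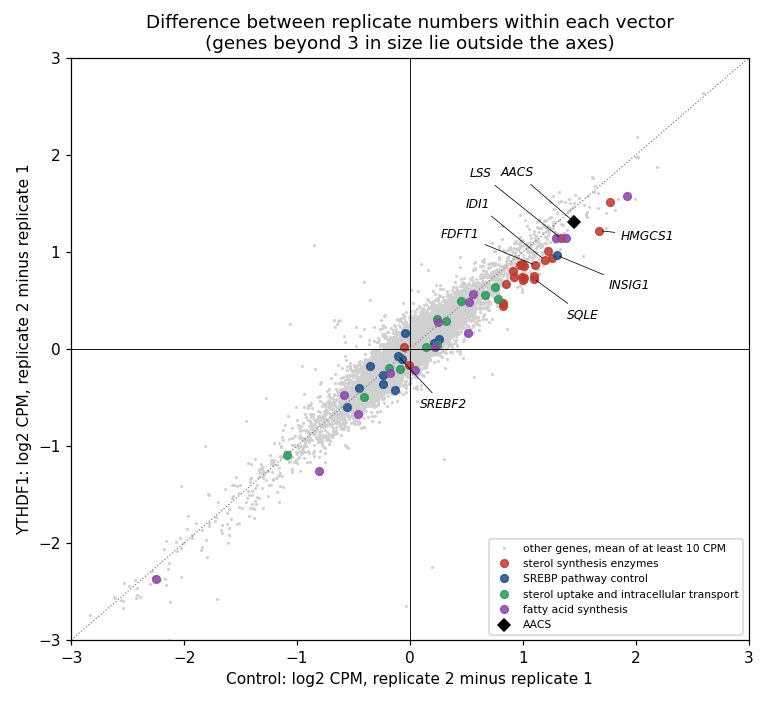
Each point is a gene with a mean of at least 10 CPM, placed by its log2 difference between replicate 2 and replicate 1 in Control (x axis) and in YTHDF1 (y axis). Most sterol synthesis enzymes (red) lie at the upper right, below the dotted line of equal differences, whereas the genes of SREBP control (blue) other than INSIG1 lie around or below 0.

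The exporters of cholesterol were at low levels. ABCA1, the exporter to apolipoproteins, had 1.95 to 3.43 CPM and ABCG1 0.141 to 1.27 CPM, with both replicates 2 below both replicates 1 for each gene. CH25H, which makes the oxysterol that restrains SREBP and is known as an interferon target in macrophages, had 2 counts in Control replicate 1 and 0 in the other 3 libraries, where a count of 0 allows up to 3. In ketone body metabolism, AACS was the 1 gene over 2-fold apart in both vectors. ACAT1 and BDH1, mitochondrial enzymes of that metabolism, differed by 0.43 and 0.41 and by 0.14 and 0.32, and OXCT1, which activates acetoacetate in mitochondria, by −0.29 and −0.43.

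Fatty acid synthesis was split. Of its 16 tested genes 3 were over 2-fold higher in replicate 2 in both vectors, against 3.07% of all genes. Over 2-fold lower were 2, against 10.4% of all genes, and nothing is read from these counts. The 3 higher genes were ACLY and ACSS2, the sources of cytosolic acetyl-CoA, and LPIN1. ACLY had 640.2 and 1566 CPM in Control and 703 and 1551 CPM in YTHDF1. ACSS2 had 66.7 and 252 CPM in Control and 84.7 and 252 CPM in YTHDF1. FASN, the fatty acid synthase, differed less (0.56 and 0.57 on the log2 scale), and SCD, the stearoyl-CoA desaturase, was near even (0.047 and −0.22). In the other direction, FADS1 had 69.9 and 14.7 CPM in Control replicates 1 and 2, and the elongase ELOVL5 had 44.0 and 0.0705 CPM, from 2617 and 4 counts. ELOVL5 had 52.0 and 0.116 CPM in the YTHDF1 pair, so it was close to absent in both replicates 2.

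The comparison of the vectors called none of the 8. With edgeR's quasi-likelihood test on all 4 libraries, 0 of 8 members met the call of a log2 fold change of 0.5 or more in either direction at an unadjusted p under 0.05, where 0.101% of all genes did (4 higher and 14 lower). At an adjusted p under 0.05 there were 0 members and 0.0% of all genes, of which 24 had an unadjusted p under 0.05, and DESeq2's Wald test gave 3 genes. No member had an unadjusted p under 0.05 in this test or in DESeq2's Wald test. Both tests hold the gap between the replicate numbers in their error, and the choice of members used that gap. For 7 members the choice itself thus made a call less likely, and nothing is read from the lack of calls. With the replicate number added to the edgeR fit as a block, 4 members had an unadjusted p under 0.05, as did 674 of all 17781 genes. The log2 fold changes of these 4 members stayed under 0.5, so 0 members were called. The groups overlapped for all 8 members, while 11.5% of all genes had groups that did not overlap. For 7 members the overlap follows from the gap between the replicate numbers, which the choice used. Nothing is read from this comparison. Without the block, 0 of the 89 tested genes in the lists were called in either direction, and their lowest unadjusted edgeR p was 0.296.

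The log2 fold changes (YTHDF1 minus Control) were small beside their errors. HMGCS1 had a mean of 1179 ± 873 CPM in Control and 1301 ± 735 CPM in YTHDF1 (SD, n = 2), and a log2 fold change of 0.14 with a standard error of 0.76 (edgeR adjusted p = 1.00). For SQLE, INSIG1, FDFT1, IDI1 and LSS the log2 fold change was between 0.079 and 0.14 with standard errors from 0.49 to 0.65. AACS had 87.6 ± 57.6 and 87.5 ± 52.6 CPM (SD, n = 2) and a log2 fold change of −0.00048 (standard error 0.71). The normal 95% interval of the log2 fold change of HMGCS1 ran from −1.34 to 1.63, and that of AACS from −1.40 to 1.40. Changes of that size were thus not detectable in this fit, where the gap between the replicate numbers is part of the error. A normal interval ignores the few degrees of freedom of the test, so it is narrower than one matched to the test.

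SREBF2 could be measured far more closely. It had 302 ± 15.4 CPM in Control and 308 ± 11.4 CPM in YTHDF1 (SD, n = 2). Its log2 fold change was 0.030 with a standard error of 0.094 and a normal 95% interval from −0.15 to 0.21. The median log2 fold change of the 8 members was 0.091, against 0.0047 for all genes tested. It was −0.37 without Control replicate 1, 0.87 without Control replicate 2, 0.51 without YTHDF1 replicate 1 and −0.43 without YTHDF1 replicate 2, since the numbers are then unequally represented.

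Within replicate 1 all 8 members were higher in YTHDF1 than in Control, and 52.4% of all genes were. The median log2 difference of the members was 0.279 there, against 0.0086 for all genes. Within replicate 2, 5 of 8 were higher, against 49.0% of all genes, with a median of 0.025. These are differences between single libraries, with no replicate and no test. Within either replicate number they rest on libraries that the choice of members used, so nothing is read from their comparison with all genes.

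**Figure D4:**
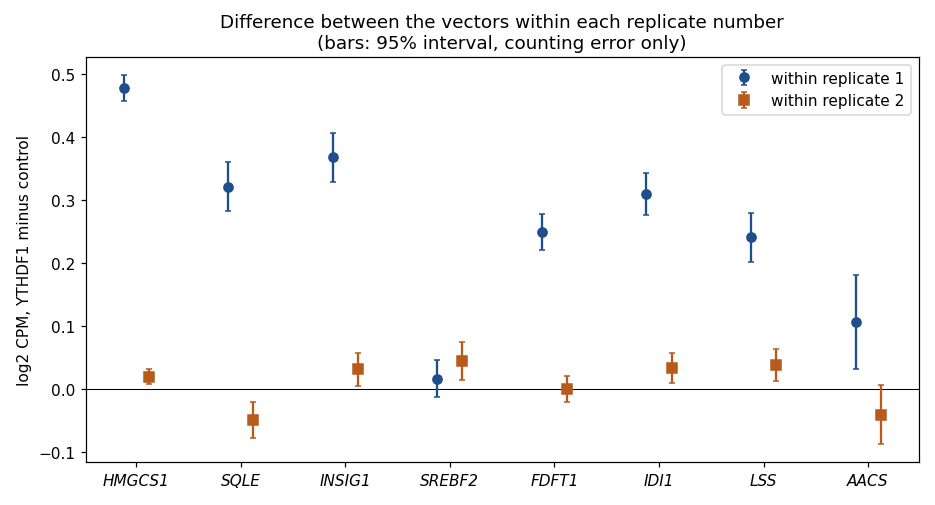
Log2 difference in CPM between YTHDF1 and Control within replicate 1 (circles) and within replicate 2 (squares) for each member, with bars for the 95% Poisson interval (counting error only). HMGCS1 stands at 0.48 within replicate 1 and 0.019 within replicate 2, and SREBF2 is near 0 in both.

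HMGCS1 again had the largest value, a log2 difference of 0.48 within replicate 1 (95% counting interval 0.46 to 0.50). It was 0.37 for INSIG1, 0.32 for SQLE, 0.31 for IDI1, 0.25 for FDFT1 and 0.24 for LSS. AACS was at 0.11 and SREBF2 at 0.016. Within replicate 2 the 8 values lay between −0.049 for SQLE and 0.044 for SREBF2.

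The other enzymes of the pathway showed the same direction. All 22 tested enzymes of sterol synthesis, and all 17 that are not members, were higher in YTHDF1 within replicate 1, against 52.4% of all genes. Their medians were 0.245 and 0.225. Within replicate 2, 12 of 22 and 9 of 17 were higher, against 49.0% of all genes, with medians of 0.0092 and 0.0053. Such counts rest on the same single libraries as those of the members, so nothing is read from the shared direction. CYP51A1 differed by 0.38 within replicate 1 and 0.028 within replicate 2. The medians within replicate 1 were lower for SREBP control (0.058), uptake and transport (0.080), fatty acid synthesis (0.126) and the non-sterol branches of the mevalonate pathway (0.046).

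These values are tied to those between the replicate numbers, because Control replicate 1 is the lowest library of 7 members and enters both. The difference of a member between the vectors within replicate 1, less that within replicate 2, equals by arithmetic its gap between the numbers in Control less that in YTHDF1, which was 0.458 for HMGCS1, 0.370 for SQLE, 0.336 for INSIG1, 0.147 for AACS and −0.029 for SREBF2. YTHDF1 itself also differed within its group, with 16494 CPM in replicate 1 against 2628 CPM in replicate 2. Its part in these differences was not tested, and with 1 library for each vector and number it cannot be told apart from other differences between the cultures.

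By the root mean square difference of centred log2 CPM over the 4 libraries, compared with 9991 genes, the genes most like AACS were LBHD1, PRXL2A, OAS2, KRT20 and LOC107984316, at 0.0158 to 0.0456. The genes most like HMGCS1 were FGFBP1, TMEM97, TMEM154, VIM-AS1 and LCP1, at 0.0289 to 0.111. TMEM97, a sterol-responsive membrane protein, had 112 and 374 CPM in Control replicates 1 and 2 and 140 and 370.3 CPM in YTHDF1. None of the 10 was in the lists, and 4 libraries that fall into 2 pairs give many genes a like pattern.

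Overlapping genes and a pseudogene held few counts beside those of the members. IDI1 overlaps WDR37, whose counts reached 11.8% of those of IDI1, and INSIG1 overlaps LOC105375591, at up to 1.11%. The antisense transcript SREBF2-AS1 reached 0.176% of SREBF2. The pseudogene AACSP1 had 51 to 116 counts, at most 4.17% of AACS, and was lower in both replicates 2, opposite to AACS. The libraries were stranded, but the strand setting of the counting is not given in the sources used here.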

How the data were processed

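Poly(A) RNA of 4 SNU638 libraries was sequenced with a stranded kit. The authors deposited counts, whole numbers of reads per gene without normalization. The submitters' processing notes name Trimmomatic, HISAT2 and GRCh38. Versions, the counting tool and the annotation release are not given in the sources used here. The members, the 7 gene lists and the rule for naming genes (the members, a fixed set of pathway genes, list genes over 1 CPM on average and over 2-fold apart between replicate numbers in both vectors, list genes called between vectors, and the 5 genes most like AACS and HMGCS1) were chosen with earlier results of these data known.

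The software was edgeR 4.0.16 under R 4.3.3. Genes were filtered by filterByExpr, scaled by TMM and compared between the vectors by the quasi-likelihood test over 17781 genes with Benjamini-Hochberg adjustment. A log2 fold change of at least 0.5 and an unadjusted p under 0.05 were asked for, as in the paper, and adjusted p is given beside it. Standard errors were derived from the log2 fold change and its F statistic. Differences between single libraries are of log2 CPM with a prior count of 0.5. Replicates were no repeat deposits, since they differed beyond sampling noise (chi-square per degree of freedom 136 and 167). The labels call the replicates biological and the study describes its experiments as independent, without saying how these cultures were separated, so p measures the spread between these libraries. DESeq2 1.42.0, other filters and scalings, the replicate block and leaving out each library were tried. Total counts were 57398137 to 60864942. Sequences are from RefSeq (GRCh38.p14). Figures were drawn with matplotlib 3.10.9. Some genes of the lists enter the counts and medians but are not reported here by name.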

Additional observations from a re-analysis of the deposited data

How the results depend on the processing

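Leaving out a library unbalances the replicate numbers, so such values hold the difference between the numbers; a group of 1 library is then assumed to vary like the other. Without 1 library each, the median log2 fold change of the members ran from −0.426 to 0.872 and the genes called over the whole table numbered from 47 to 60. The log2 fold change then ran from −0.600 to 1.21 for HMGCS1, −0.367 to 0.729 for SQLE, −0.433 to 0.930 for INSIG1, −0.0225 to 0.0827 for SREBF2, −0.419 to 0.744 for FDFT1, −0.415 to 0.840 for IDI1, −0.588 to 0.920 for LSS and −0.805 to 0.903 for AACS. No member and no list gene was called in any of these fits. YTHDF1 itself had a log2 fold change from 5.02 to 7.66 in them, and from 6.34 to 6.88 under the other settings.

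With all libraries, 7 members kept their direction and stayed uncalled under the 6 other settings tried, while AACS went from −0.00048 to 0.00139 with DESeq2's size factors, 0.00130 with DESeq2's Wald test and 0.0263 with the replicate number as a block. Genes called over the whole table numbered 82 in place of 18 without the filter on low counts, when 26355 genes were tested. DESeq2's Wald test gave 3 genes at an adjusted p under 0.05 where edgeR gave 0. The replicate numbers share no stated origin, and with 2 pairs the check (r = 0.875 between deviations of same-numbered libraries) does not establish pairing. With the replicate block 192 genes were called and 10 had an adjusted p under 0.05. Among the lists 1 was called, NPC1L1. Of the members 0 were called under this block, and 4 had an unadjusted p under 0.05 from edgeR, namely HMGCS1, INSIG1, IDI1 and LSS, with log2 fold changes under 0.5 and an adjusted p of at least 0.999. With the block 674 of all 17781 genes, and 15 of the list genes, had an unadjusted p under 0.05 from edgeR. Standard errors were smaller with the block, at 0.0848 for HMGCS1 (log2 fold change 0.247) and 0.0523 for AACS, and YTHDF1 itself had an edgeR adjusted p of 0.00223. Within replicate 1 alone, a setting chosen after seeing the data, the median of the members was 0.279.

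The number of members over 2-fold apart between the replicate numbers in both vectors was 3 and became 7 at a limit of 1.5-fold. Under other scalings, filters and a prior count of 2, no difference between replicate numbers moved by more than 0.011 or changed sign.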
